A study of Homo sapiens with 6 samples.

Results

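The genes of DNA replication and nucleotide synthesis were followed through the knockdown of SPOP, the substrate adaptor of a CUL3 ubiquitin ligase, in 2 cancer cell lines. The set holds 41 genes, grouped by their known roles, of 24551 gene symbols in the data. All 41 were found in the files under 1 symbol each, and all passed the filter on low values, a mean of 1 FPKM or more, which left 11865 genes to be tested. FPKM scales the number of fragments of a gene by transcript length and by the size of the library, so levels of different genes can be set side by side. DU145 is a prostate carcinoma line taken from a brain metastasis, and 769-P is a line from a renal cell adenocarcinoma. Each line gave 3 libraries, of which 1 is the negative control siRNA (NC) and the others carry siRNA 1 or siRNA 2 against SPOP. The methods of the study give 2 biological replicates, whereas the labels list 1 library per siRNA, and the hours between transfection and RNA extraction are not given in the sources used here. The 2 siRNA libraries of a line were taken as its replicates, and the control has none.

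Replication starts at origins. The origin recognition complex, CDC6 and CDT1 load the ring of MCM2 to MCM7 on DNA in G1, and MCM10, CDC45 and the GINS complex turn that ring into the active helicase in S phase. Polymerase alpha with primase lays down primers, polymerases delta and epsilon copy the strands on the sliding clamp PCNA, which the RFC complex loads, and FEN1 and LIG1 join the Okazaki fragments. Thymidylate synthase, ribonucleotide reductase and thymidine kinase supply the nucleotides. Many of these genes are transcribed by E2F factors at the G1/S transition, and E2F is held back by RB1. Cyclin E1, which the study examined as a protein bound by SPOP, acts with CDK2 upstream of RB1. In a population of cells, a smaller share of cells in S phase and less mRNA per cell cannot be told apart from these values. In DU145 cells with stable SPOP knockdown, the paper reports more S phase cells after release from synchronization, and faster proliferation. The libraries used here hold no measure of the S phase share.

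The knockdown was examined before the set. SPOP (GRCh37 chromosome 17, bases 47676246 to 47755525) was at 16.1 FPKM in the DU145 NC, 2.77 with siRNA 1 and 2.96 with siRNA 2, which left 17.2% and 18.4%. The 769-P values were 11.6 FPKM in the NC, 1.53 with siRNA 1 and 1.39 with siRNA 2. Of 7 epithelial markers, KRT8, KRT18, KRT7 and EPCAM were above 1 FPKM in every library of both lines. KRT19 had 384 to 462 FPKM in DU145 and 0 to 3.56 in 769-P, CDH1 had 8.87 to 17.7 in DU145 and at most 0.10 in 769-P, and KRT5 had at most 0.25 in either. PAX8, a renal lineage factor, had 106 to 125 FPKM in 769-P and 1.10 to 1.47 in DU145. Of the other renal markers PAX2, CDH6, LHX1 and VIM were also higher in 769-P, while NNMT and NDUFA4L2 were higher in DU145. NNMT had 47.3 to 70.5 FPKM in DU145 and 6.31 to 9.76 in 769-P. NDUFA4L2 had 1.78 to 4.21 FPKM in DU145 and was listed at 0 in all 769-P libraries. The prostate genes KLK2, KLK3, TMPRSS2, HOXB13 and FOLH1 had at most 0.31 FPKM in DU145, and the renal cancer gene CA9 was listed at 0 in all 769-P libraries. Of the leukocyte markers PTPRC and CD3E had at most 0.13 FPKM, while CD68 had 20.7 to 74.7. The endothelial markers had at most 0.18 FPKM. COL1A1, a fibroblast marker, had 1.71 FPKM in the 769-P NC and 9.68 and 7.36 with the siRNAs. The 5 fibroblast markers together had 1.78 FPKM in the 769-P NC, 10.4 with siRNA 1 and 7.72 with siRNA 2, and in DU145 3.08 to 4.05. DCN was listed at 0 in all libraries and COL1A2 had at most 0.18 FPKM. The part of these values in the results was not tested. Olfactory receptor genes had a mean of 0.347 FPKM in the DU145 NC and 0.228 with siRNA 2 in 769-P, while the 4 remaining libraries had 0.0108 or less. The DU145 NC enters every DU145 change, and the lowest level of a gene of the set in it was 3.67 FPKM.

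The promoters of the 4 genes that passed the fold threshold below are printed to show what they do and do not share. They are the 250 bases before the transcription start, from RefSeq on GRCh38.p14, 5′ to 3′ on the strand of the gene. Capitals mark the E2F words TTTGGCGC, TTTCGCGC, TTTCCCGC and TTTGCCGC, the NF-Y word CCAAT and the CHR word TTTGAA, on either strand. The promoter of MCM6, which encodes a helicase subunit, was added after the matches were counted, because it held the most E2F words.
PRIM1, chr12:56752324-56752573, minus strand: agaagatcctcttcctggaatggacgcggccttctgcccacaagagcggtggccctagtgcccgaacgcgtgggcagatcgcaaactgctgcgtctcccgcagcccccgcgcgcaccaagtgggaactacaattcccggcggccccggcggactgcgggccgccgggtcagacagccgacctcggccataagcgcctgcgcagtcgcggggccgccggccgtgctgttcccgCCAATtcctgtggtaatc
RFC3, chr13:33817899-33818148, plus strand: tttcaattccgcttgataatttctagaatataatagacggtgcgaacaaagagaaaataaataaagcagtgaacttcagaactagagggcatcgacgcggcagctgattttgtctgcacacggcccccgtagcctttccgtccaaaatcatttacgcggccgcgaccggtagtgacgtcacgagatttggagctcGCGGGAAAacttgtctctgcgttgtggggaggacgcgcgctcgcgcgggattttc
GINS1, chr20:25407423-25407672, plus strand: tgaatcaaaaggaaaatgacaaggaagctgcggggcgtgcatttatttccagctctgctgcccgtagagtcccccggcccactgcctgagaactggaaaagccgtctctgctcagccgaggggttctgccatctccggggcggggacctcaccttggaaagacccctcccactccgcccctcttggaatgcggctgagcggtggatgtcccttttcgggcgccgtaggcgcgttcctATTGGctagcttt
MCM10, chr10:13161308-13161557, plus strand: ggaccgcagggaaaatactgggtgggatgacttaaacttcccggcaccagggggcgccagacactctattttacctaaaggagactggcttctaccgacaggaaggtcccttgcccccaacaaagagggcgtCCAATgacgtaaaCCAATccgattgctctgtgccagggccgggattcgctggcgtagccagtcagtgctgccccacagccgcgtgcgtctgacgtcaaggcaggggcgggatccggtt
MCM6, chr2:135876444-135876693, minus strand: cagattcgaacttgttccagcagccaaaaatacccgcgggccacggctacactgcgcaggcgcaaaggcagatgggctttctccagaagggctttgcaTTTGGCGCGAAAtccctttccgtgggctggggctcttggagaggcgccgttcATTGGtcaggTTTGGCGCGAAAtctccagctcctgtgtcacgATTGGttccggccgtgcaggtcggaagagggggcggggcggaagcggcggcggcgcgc

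MCM6 held 4 E2F matches, which overlapped in pairs on opposite strands, and 2 CCAAT matches between and after them. RFC3 held 1 E2F match, 55 to 48 bases before the start. PRIM1 and GINS1 held 1 CCAAT match each, at 18 to 14 and at 13 to 9 bases before the start, and MCM10 held 2, and these 3 promoters held none of the E2F words. Promoters were matched for 35 of the 41 genes. An E2F word was present in 13 of the 35 (37.1%), in 4.60% of 8521 promoters of the genes tested and in 2.79% of all 27305 promoters. CCAAT was present in 21 of the 35 (60.0%), against 35.1% of the genes tested and 33.0% of all promoters. The GC box GGGCGG, not in capitals above, was present in 71.4%, 69.5% and 42.3% of the same groups, and the CHR word in 1 of the 35, in 7.75% and in 13.6%. A match says only that these letters are in the window.

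The genes of the set differed in level by more than 10 times within each line. In the DU145 NC the highest was TK1, thymidine kinase of S phase, with 180 FPKM (179.5), followed by MCM5 with 119, MCM7 with 114 and MCM3 with 103. In the 769-P NC MCM7 had 160 FPKM (159.96), TK1 had 154, PCNA had 152 and TYMS, thymidylate synthase, had 139. At the low end, GINS1 had 3.67 FPKM and POLA1, the catalytic subunit of polymerase alpha, had 4.33 in the DU145 NC. In the 769-P NC POLE2, a subunit of polymerase epsilon, had 4.19 FPKM and PRIM2, the large primase subunit, had 4.71. Subunits of 1 complex were not at 1 level. Among the MCM ring genes of the 769-P NC, MCM6 had 34.6 FPKM against 160 for MCM7, and among the GINS genes of that library GINS3 had 5.96 against 46.2 for GINS2. Of the clamp loader genes RFC1 was the lowest in both controls, at 13.9 FPKM in DU145 together with 14.0 for RFC3, and at 11.8 in 769-P.

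**Figure D1:**
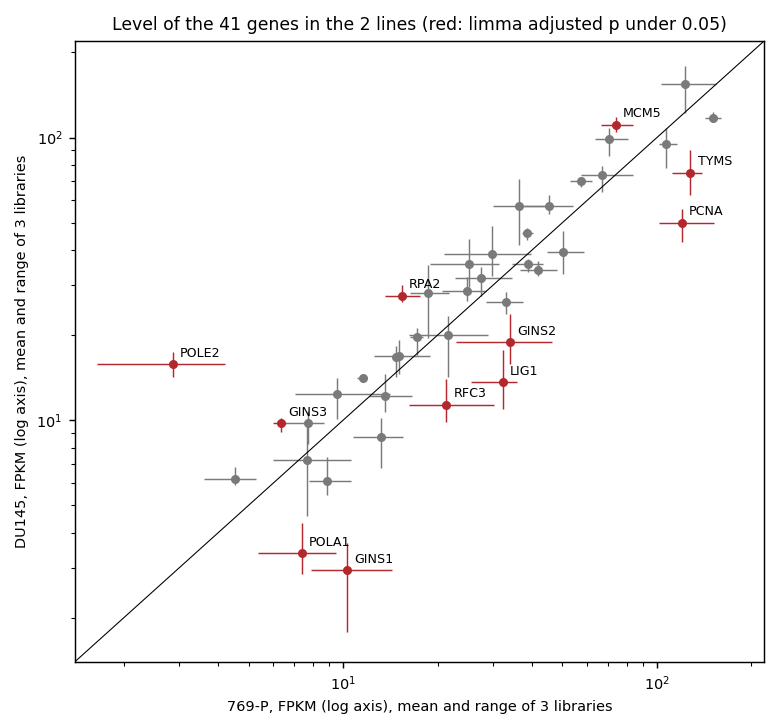
Mean FPKM of each of the 41 genes in 769-P (x axis) and in DU145 (y axis), both on log axes, with bars from the lowest to the highest of the 3 libraries of a line, and with the 11 genes that passed limma in red. Most genes lie along the diagonal of equal level, POLE2 lies far above it at 15.8 against 2.86 FPKM, and GINS1 and PCNA lie below it.

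The level in the 2 lines was compared with limma over 4 groups. The siRNA pairs supply its only estimate of the spread. The contrast took the mean of the difference between the controls and that between the siRNA groups (DU145 minus 769-P). Of the 41 genes, 4 (9.76%) were higher in DU145 at an adjusted p under 0.05 and 7 (17.1%) were lower. Over all genes tested 26.8% were higher in DU145 and 15.3% were lower. The median difference of the 41 genes was 0.15 on the log2 scale and that of all genes tested was 0.14. All 3 DU145 libraries were above all 3 of 769-P for 9 of the 41 genes, against 35.1% of all genes, and below them for 10, against 21.2%.

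POLE2 had the largest difference. It had 14.2, 15.7 and 17.4 FPKM in the DU145 NC, siRNA 1 and siRNA 2 libraries and 4.19, 1.64 and 2.75 FPKM in those of 769-P, and the groups did not overlap. In log2 units it differed by 2.02, with a standard error of 0.21 and an adjusted p of 0.00163 in limma. The other genes higher in DU145 were MCM5, GINS3 and RPA2, a subunit of the single-strand DNA binding protein, with log2 differences of 0.56, 0.54 and 0.74. In the opposite direction, GINS1 had 3.67, 1.78 and 3.42 FPKM in DU145 and 14.3, 7.88 and 8.75 in 769-P, a log2 difference of -1.56 (standard error 0.25, adjusted p = 0.00568 from limma). PCNA had 55.8, 42.7 and 51.7 FPKM in DU145 and 152, 101 and 106 in 769-P, a log2 difference of -1.28 (standard error 0.15, adjusted p = 0.00239 from limma). LIG1, the replicative DNA ligase, had 17.7, 12.3 and 10.9 FPKM in DU145 and 35.5, 35.9 and 25.5 in 769-P, a log2 difference of -1.14. POLA1 had 4.33, 2.94 and 2.87 FPKM in DU145 and 9.53, 7.23 and 5.37 in 769-P, a log2 difference of -0.94. RFC3 (-0.87), GINS2 (-0.82) and TYMS (-0.73) were also lower in DU145, and GINS2 overlapped between the lines, at 23.8 FPKM in the DU145 NC and 22.9 with siRNA 2 in 769-P. POLE2 and PCNA passed under every alternative tried. Of 14 settings, the main fit included, GINS2 passed in 8 and GINS3 in 6, the fewest among the genes that passed in the main fit. The number of genes passing was 11 in all and 3 when the siRNA 1 library of 769-P was left out, 5 without its siRNA 2 library and 6 without the siRNA 2 library of DU145.

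In 769-P the set lay below the control. Of the 41 genes, 35 (85.4%) were below the NC with both siRNAs, 1 was above it with both and 5 were mixed. Over all genes tested 39.5% were below the NC with both siRNAs and 31.5% were above. Both siRNAs are set against the same NC library, which ties their signs together. The median log2 change, on FPKM + 1, was -0.38 with siRNA 1 and -0.37 with siRNA 2 over the 41 genes, and 0.00 and -0.06 over all genes tested. The study used cutoffs of 2-fold and of 1.5-fold. With both siRNAs required here to be at least 1.5-fold from the NC to the same side, 4 genes were called lower and 0 higher, against 3.73% and 3.6% of all genes tested. At 2-fold the number was 0.

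**Figure D2:**
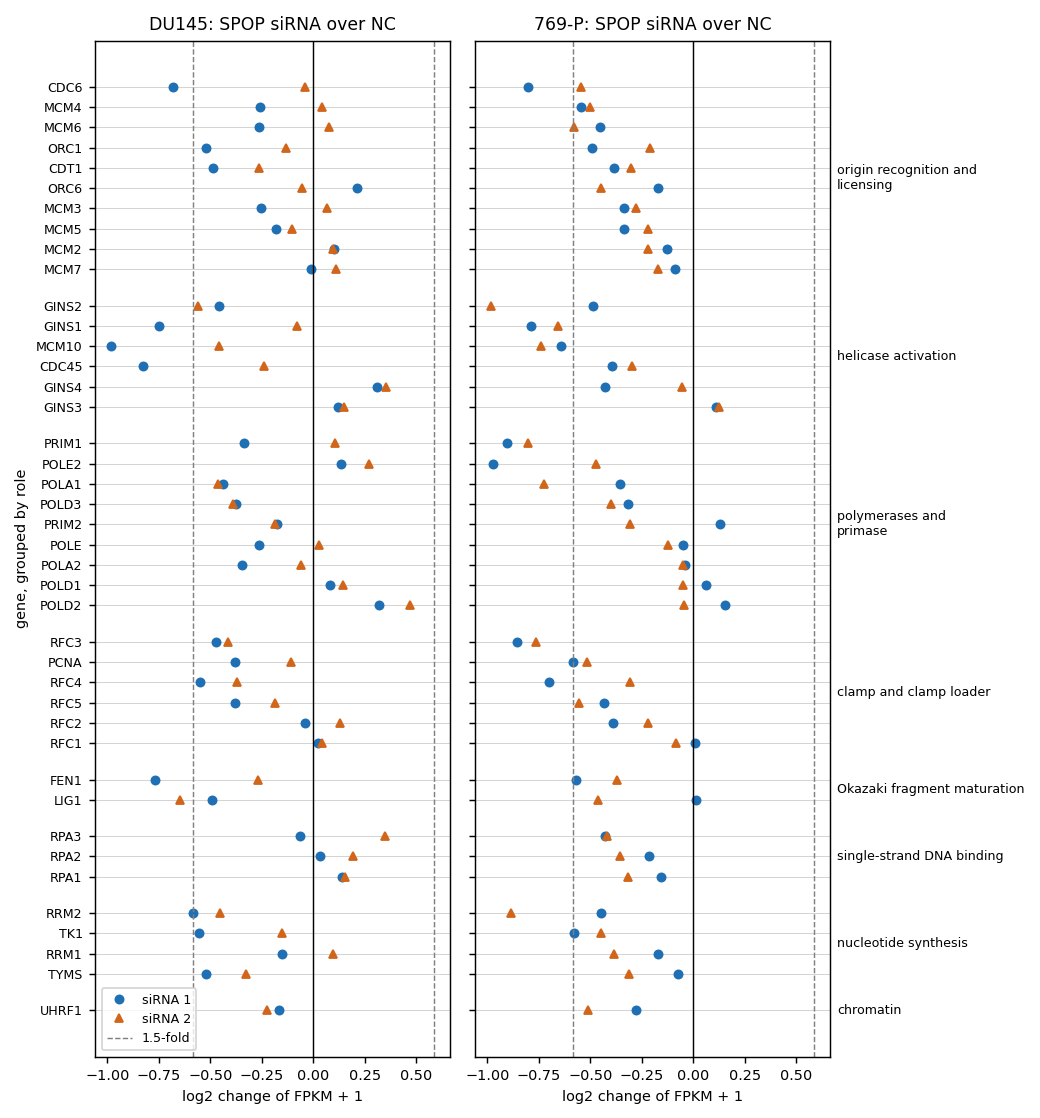
Change of each of the 41 genes with siRNA 1 (circles) and siRNA 2 (triangles) over the NC of its line, as log2 of FPKM + 1 on the x axis, with the genes on the y axis grouped by role and dashed lines at 1.5-fold. In 769-P 35 genes have both points left of 0, and in DU145 22 do.

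The 4 genes called in 769-P were PRIM1, RFC3, GINS1 and MCM10. PRIM1, the catalytic primase subunit (GRCh37 chromosome 12, bases 57124222 to 57146158), was measured at 14.1 FPKM in the NC, 7.04 with siRNA 1 and 7.62 with siRNA 2, or 50.0% and 54.2% of the NC. In GENCODE some of its exons overlap exons of NACA on the same strand, which counting by strand cannot separate, and of HSD17B6 on the other. Exons of POLD1 also overlap another gene model on the same strand, and those of GINS2, MCM7, RFC4, RPA1, RPA3 and TYMS overlap a coding gene on the opposite strand. Whether the counting used strand is not given in the sources used here, so the values of these genes are uncertain to that extent. RFC3, a small subunit of the clamp loader, lies on chromosome 13 at bases 34392206 to 34540695 and was at 30.2 FPKM in the NC, 16.2 with siRNA 1 and 17.4 with siRNA 2. GINS1 (chromosome 20, bases 25371644 to 25433336) was at 14.3 FPKM in the NC, 7.88 with siRNA 1 and 8.75 with siRNA 2. MCM10 (chromosome 10, bases 13203558 to 13253110) was at 10.6 FPKM in the NC, 6.45 with siRNA 1 and 5.97 with siRNA 2. In each of the 4 genes the siRNA libraries were close to each other, and the call itself requires both to be below the single control. The log2 change was -0.86 for PRIM1, -0.81 for RFC3, -0.72 for GINS1 and -0.69 for MCM10, as means of the 2 siRNAs.

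In the limma fit 0 of the 41 genes passed an adjusted p of 0.05 for the change in 769-P, against 0.101% of all genes tested. An unadjusted p under 0.05 was found for 5 (12.2%), all of them lower (GINS2, PRIM1, PCNA, RFC3 and RRM2). Of all 11865 genes tested 827 had an unadjusted p under 0.05, in either direction. The smallest adjusted p in the set was 0.693, for RFC3 (log2 change -0.81, standard error 0.22) and PRIM1 (-0.86, standard error 0.28). The fit has 2 residual degrees of freedom, and even SPOP did not pass in 769-P (adjusted p = 0.0948 from limma).

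**Figure D3:**
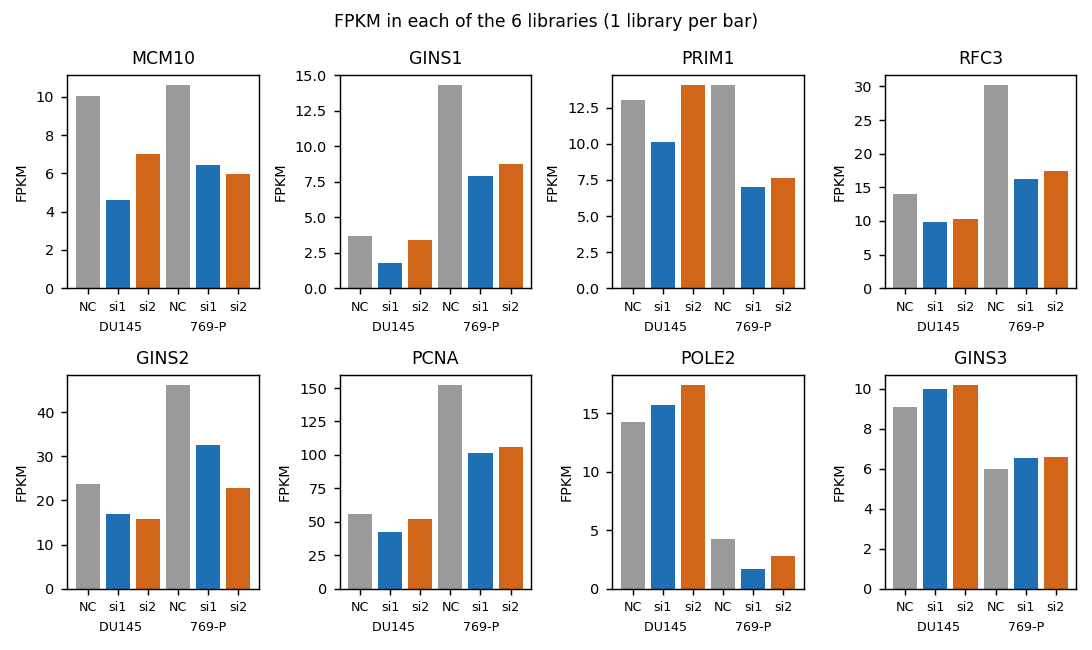
FPKM (y axis, from 0) of 8 genes in each of the 6 libraries, with the NC in grey, siRNA 1 in blue and siRNA 2 in orange. In 769-P both siRNA bars of MCM10, GINS1, PRIM1, RFC3, GINS2, PCNA and POLE2 are below the grey bar, whereas those of GINS3 are above it in both lines.

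By role, all 10 genes of origin recognition and licensing were below the 769-P NC with both siRNAs, with a median log2 change of -0.33. CDC6, the MCM loader, had 29.0 FPKM in the NC, 16.2 with siRNA 1 and 19.6 with siRNA 2, and was the lowest of them at -0.67. MCM4 (-0.52) and MCM6 (-0.52) followed, and MCM7 (-0.13) and MCM2 (-0.18) were closest to the control. ORC1 (-0.35), CDT1 (-0.34), ORC6 (-0.31), MCM3 (-0.31) and MCM5 (-0.28) were between these. The standard errors in limma were 0.20 for MCM7 and 0.22 for MCM4, and differences among the ring genes were not tested.

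Of the 6 genes of helicase activation, 5 were below the 769-P NC with both siRNAs. GINS2 had 46.2 FPKM in the NC, 32.7 with siRNA 1 and 22.9 with siRNA 2, a log2 change of -0.49 and -0.98, so the siRNAs differed by 0.49. CDC45, a helicase cofactor, had 21.8, 16.4 and 17.6 FPKM, and GINS4 had 8.72, 6.21 and 8.35. GINS3 was the exception, with 5.96, 6.53 and 6.60 FPKM in 769-P. It was also the only 1 of the 41 genes above the NC with both siRNAs in both lines.

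Among the 9 polymerase and primase genes the median log2 change in 769-P was -0.09, and 6 of the 9 were below the NC with both siRNAs. Taken singly, siRNA 1 gave a median of -0.05 and siRNA 2 of -0.31. Beside PRIM1, POLE2 had 4.19 FPKM in the NC, 1.64 with siRNA 1 and 2.75 with siRNA 2, a mean log2 change of -0.72 that did not reach 1.5-fold with siRNA 2. POLA1 was at -0.54 and POLD3, an accessory subunit of polymerase delta, at -0.36. POLA2, the regulatory subunit of polymerase alpha, had 15.0, 14.6 and 14.5 FPKM, and POLE (-0.09) and PRIM2 (-0.09) were also near the control. POLD1, the catalytic subunit of polymerase delta, had 38.5, 40.3 and 37.2 FPKM, and POLD2, its partner, had 104, 116 and 101, and neither kept 1 direction with both siRNAs.

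Of the clamp and clamp loader genes PCNA had 152 FPKM in the NC, 101 with siRNA 1 and 106 with siRNA 2, a mean log2 change of -0.55. RFC4 (-0.50), RFC5 (-0.49) and RFC2 (-0.30) were lower with both siRNAs, and RFC1, the large subunit, had 11.8, 11.9 and 11.1 FPKM. FEN1, the flap endonuclease, had 44.9, 30.0 and 34.5 FPKM. LIG1 was level with siRNA 1 and lower with siRNA 2. The 3 RPA genes, which encode the single-strand DNA binding protein, were at -0.24, -0.29 and -0.43 for RPA1, RPA2 and RPA3. All 4 nucleotide synthesis genes were below the NC with both siRNAs. RRM2, the regulated subunit of ribonucleotide reductase, had 39.6 FPKM in the NC, 28.8 with siRNA 1 and 21.0 with siRNA 2, and TK1 had 154, 103 and 113. TYMS (-0.19) and RRM1 (-0.28) were closer to the control. UHRF1, which reads hemimethylated DNA behind the fork, had 54.0, 44.4 and 37.6 FPKM.

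In DU145 the set was less uniform. Of the 41 genes, 22 (53.7%) were below the NC with both siRNAs, 9 were above it with both and 10 were mixed. Over all genes tested 22.2% were below the NC with both siRNAs and 43.5% were above. The median log2 change was -0.27 with siRNA 1 and -0.06 with siRNA 2 over the 41 genes, and 0.07 and 0.12 over all genes tested. The values of all genes thus lay above the DU145 NC on balance, and relative to that shift the medians of the set were -0.34 with siRNA 1 and -0.18 with siRNA 2. After the changes of each library were centred on the median of all genes, 30 of the 41 genes were below the NC with both siRNAs and 6 above. No gene of the set was called at 1.5-fold with both siRNAs, against 1.19% of all genes called lower and 4.72% called higher. After centring the number in the set was still 0, while the share of all calls that were higher went from 79.9% to 58.5%. With siRNA 1 alone 5 genes passed 1.5-fold (CDC6, MCM10, CDC45, GINS1 and FEN1), and with siRNA 2 alone 1 did (LIG1), all of them lower. Of all 11865 genes tested, 880 were lower and 1428 higher with siRNA 1 alone, and 442 and 1345 with siRNA 2 alone. In the limma fit 0 of the 41 genes passed an adjusted p of 0.05 in DU145, and 0.135% of all genes passed. The number with an unadjusted p under 0.05 was 0, against 744 of all 11865 genes tested. It was 9, all lower, with quantile normalization, against 805 of all genes, and 2 with the replicate block, against 1214.

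The lowest gene of the set in DU145 was MCM10, with 10.0 FPKM (10.03) in the NC, 4.59 with siRNA 1 and 7.04 with siRNA 2, a mean log2 change of -0.72. The siRNA values were both lower, and they differed from each other by 0.52 on the log2 scale. LIG1 had 17.7, 12.3 and 10.9 FPKM, a mean log2 change of -0.57, and its siRNA values were closer. CDC45 had 35.4, 19.5 and 29.8 FPKM, a mean of -0.53. RRM2 had 48.8, 32.2 and 35.4 FPKM, a mean of -0.52. FEN1 had 71.5, 41.6 and 59.3 FPKM, also a mean of -0.52. GINS2 (-0.51), RFC4 (-0.46), POLA1 (-0.45), RFC3 (-0.44) and TYMS (-0.42) followed, lower with both siRNAs. At the other end POLD2 had 78.1 FPKM in the NC, 97.8 with siRNA 1 and 108 with siRNA 2, a mean log2 change of 0.39, and GINS4 had 8.23, 10.4 and 10.8 FPKM, a mean of 0.33. POLE2 (0.20) came next. RPA1 had 33.3, 36.9 and 37.3 FPKM. RPA3 had 11.2, 10.7 and 14.6 FPKM and was above the NC with siRNA 2 only.

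The roles differed in DU145 as values. Of the licensing genes 4 of 10 were below the NC with both siRNAs (ORC1, CDC6, CDT1 and MCM5), MCM2 was above it with both at 66.8, 71.8 and 71.4 FPKM, and 5 were mixed. The median log2 change was -0.46 for helicase activation, -0.26 for the clamp and its loader, -0.39 for nucleotide synthesis and -0.12 for the polymerases and primase. These medians were further from 0 with siRNA 1 than with siRNA 2. They were -0.60 and -0.16 for helicase activation, -0.38 and -0.15 for the clamp and its loader, -0.54 and -0.24 for nucleotide synthesis, and -0.27 and 0.03 for the polymerases and primase, whose sign turned. The median was 0.14 for the 3 RPA genes, 0.03 with siRNA 1 and 0.19 with siRNA 2, of which 0 were below the NC with both siRNAs. PCNA had 55.8, 42.7 and 51.7 FPKM, and PRIM1, which was called in 769-P, had 13.0, 10.1 and 14.1. UHRF1 had 62.8, 55.8 and 53.6 FPKM.

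**Figure D4:**
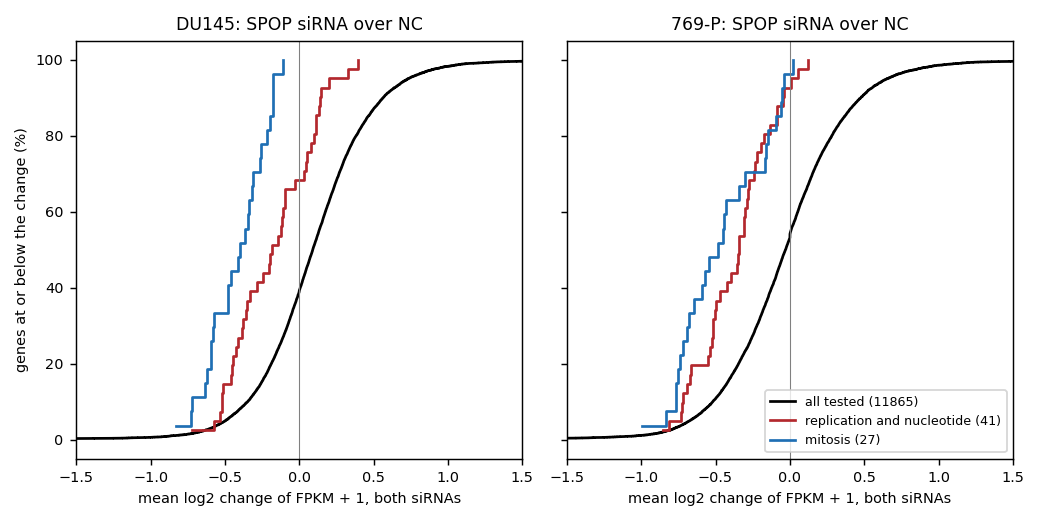
Cumulative share of genes (y axis, %) at or below each mean log2 change of the 2 siRNAs (x axis) for all 11865 genes tested (black), the 41 replication and nucleotide genes (red) and 27 mitosis genes (blue). The red line crosses 50% at -0.18 in DU145 and at -0.35 in 769-P, left of the black line in both.

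Set side by side, 20 of the 41 genes were below the NC with both siRNAs in both lines, against 13.6% of all genes tested. Among them were CDC6, CDT1, MCM10, CDC45, GINS1, GINS2, PCNA, RFC3, FEN1, RRM2, TK1 and UHRF1. The change was more negative in 769-P than in DU145 for 31 of the 41 genes, and the matching share of all genes was not counted. Over all genes the medians of the mean change were -0.03 in 769-P and 0.09 in DU145, so all genes leaned the same way. The contrast between the lines in the set depended on the scaling. The median difference of the change over the 41 genes (DU145 less 769-P) was 0.20, and 0.04 with quantile normalization, and after centring the medians of the set were -0.28 in DU145 and -0.32 in 769-P. For 5 genes both siRNAs were above the NC in DU145 and below it in 769-P. These were MCM2, GINS4, POLE2, RPA1 and RPA2, and the reverse pattern was seen in 0 genes. Over all genes tested 43.5% were above the DU145 NC with both siRNAs and 39.5% were below that of 769-P. For the reverse the shares were 22.2% below the DU145 NC and 31.5% above the 769-P NC. How many of all genes held both parts of either pattern was not counted. POLE2 had the largest difference of the change, 0.93 in log2 units as DU145 less 769-P, followed by PRIM1 with 0.74. In limma 0 of the 41 genes passed an adjusted p of 0.05 for this difference, 0 had an unadjusted p under 0.05, and 0.169% of all genes passed. A difference of the change between the lines was therefore not shown for any gene of the set.

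The 2 siRNA libraries of DU145 differed from each other. With 1 library per siRNA in each line, a difference between siRNAs cannot be told apart from a difference between libraries. Only 8 of the 41 genes were lower with siRNA 2 than with siRNA 1 in DU145, against 44% of all genes tested. In 769-P 22 were, against 58.3%. The largest differences in DU145 (siRNA 2 minus siRNA 1) were 0.67 for GINS1, which had 1.78 FPKM with siRNA 1 and 3.42 with siRNA 2, 0.64 for CDC6 and 0.59 for CDC45. In 769-P they were 0.50 for POLE2 and -0.49 for GINS2. SPOP differed by 0.07 in DU145 and by -0.08 in 769-P.

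Other genes of the pathway were taken from lists that did not enter the set. Of 34 other replication factors, 30 were below the 769-P NC with both siRNAs and 17 were below the DU145 NC, with median log2 changes of -0.37 and -0.15. Called lower at 1.5-fold in 769-P were 5 of them and 0 higher. GMNN, the inhibitor of CDT1, had 41.3 FPKM in the NC, 25.8 with siRNA 1 and 26.8 with siRNA 2. MCM8, a relative of the ring genes that acts in recombination, had 10.9, 4.77 and 6.29 FPKM. TOP2A, topoisomerase II alpha, had 41.6, 25.9 and 21.2 FPKM, DSCC1, of an alternative clamp loader, had 11.8, 6.64 and 6.44, and MTBP, of origin firing, had 7.08, 3.56 and 4.08. In DU145 0 of the 34 were called. Of 31 other nucleotide synthesis enzymes 20 (64.5%) were below the 769-P NC with both siRNAs, with a median log2 change of -0.16. In DU145 7 (22.6%) were below the NC with both siRNAs, near the 22.2% of all genes, and 8 (25.8%) were above, against 43.5%. The median there was -0.02, against 0.09 over all genes. SAMHD1, which breaks down nucleotides, had 32.7, 8.27 and 6.54 FPKM in 769-P and 10.8, 7.65 and 8.30 in DU145. DCK, deoxycytidine kinase, had 10.1, 5.98 and 5.81 FPKM in 769-P, and these 2 genes were those called there. The paper names SAMHD1 among genes that it describes as oppositely regulated by SPOP in the 2 lines, and it checked them by RT-PCR. In the values used here SAMHD1 was below the NC with both siRNAs in both lines.

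The regulators of E2F did not share 1 pattern. E2F1 had 39.3 FPKM in the DU145 NC, 45.1 with siRNA 1 and 20.6 with siRNA 2, and 29.6, 35.5 and 17.7 in 769-P. It was above the control with siRNA 1 and below it with siRNA 2 in both lines. CCNE1, cyclin E1, had 8.62, 13.1 and 5.77 FPKM in DU145 and 7.76, 15.0 and 9.11 in 769-P, so the siRNAs differed by 1.06 in DU145 and 0.66 in 769-P, lower with siRNA 2. By RT-PCR the paper reports no effect of SPOP knockdown on CCNE1 mRNA in either line, and it places the effect of SPOP on the stability of the protein. RB1 had 4.76, 6.12 and 6.35 FPKM in DU145, a line known for loss of functional RB protein, and 22.5, 18.7 and 14.6 in 769-P. Of the 29 regulators, 20 were below the NC with both siRNAs in 769-P and 11 in DU145. Called lower in 769-P were CCND1, E2F8, CCNA2 and SKP2. CCND1 had 379 FPKM in the NC and 125 with siRNA 2, and its log2 change was -1.07 with siRNA 1 and -1.59 with siRNA 2. CDKN2B, a CDK4 and CDK6 inhibitor, was called higher in 769-P with 4.95, 12.8 and 12.3 FPKM. CCNA2, the S phase cyclin, had 45.3, 24.9 and 27.5 FPKM there, E2F8, a repressor of the family, had 5.62, 2.69 and 2.15, and SKP2, a ubiquitin ligase subunit that targets CDKN1B, had 20.9, 12.2 and 11.7. In DU145 CCND1, cyclin D1, with 193, 106 and 104 FPKM, and CCNE2, cyclin E2, with 3.90, 2.04 and 1.96, were called lower.

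Mitosis genes gave values of the same direction. Of 27 tested, 25 were below the NC with both siRNAs in DU145 and 21 in 769-P, with median log2 changes of -0.40 and -0.49, and 7 were called lower in 769-P (CDK1, AURKA, BUB1, MAD2L1, KIF23, NDC80 and NUF2). In DU145 2 were called lower, CDC25C and PTTG1. An E2F word was present in 1 of 23 mitosis promoters (4.35%), CCAAT in 18 (78.3%) and the CHR word in 12 (52.2%). CDK1, the mitotic kinase, had 43.7, 24.6 and 23.5 FPKM in 769-P and 40.8, 22.0 and 33.2 in DU145. In 769-P AURKA, a spindle kinase, had 46.6, 26.1 and 28.0 FPKM. The checkpoint genes BUB1 and MAD2L1 had 23.4, 14.4 and 13.9 and 38.7, 20.6 and 24.7 FPKM there. KIF23, a kinesin of cytokinesis, had 24.9, 15.1 and 14.0 FPKM, and the kinetochore genes NDC80 and NUF2 had 12.8, 7.55 and 7.28 and 27.7, 12.0 and 14.8. In DU145 CDC25C, the phosphatase that activates CDK1, had 6.59, 2.76 and 3.84 FPKM, and PTTG1, securin, had 76.2, 50.2 and 47.1. No test of the difference between the mitosis and the replication genes was made.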

How the data were processed

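RNA-Seq was measured in 6 libraries of poly(A) RNA. The authors checked reads with FastQC, trimmed them with cutadapt, mapped them with TopHat2 to hg19 and ran Cufflinks, and the deposited values are FPKM by gene symbol. The paper names a TruSeq kit and the labels name other kits. Tool versions and the annotation are not given in the sources used here. FPKM holds no read counts, so the precision of a value is unknown. The ratio of values under 0.5 FPKM put the depths at 0.681 to 1.41 times that of the 769-P NC. Rows of 1 symbol were summed, 1 FPKM was added before log2, and the test took genes with a mean of 1 FPKM or more. No count test was possible. limma 3.58.1 (R 4.3.3) was fitted across all genes with 4 groups and a trend, with Benjamini-Hochberg adjustment, and was tested on simulated data. Its p-values measure the spread between 2 siRNAs, for which the labels name no separate cultures. Python 3.11.15 with pandas 2.3.3 was used. Positions are from GENCODE on GRCh37.

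Values by library are given for the genes called at 1.5-fold, the 5 lowest and 5 highest in each line and the 5 with the largest difference between lines, and for SPOP, CCNE1, E2F1 and RB1. The members and lists were chosen with earlier results of these data known. Other genes are named to account for every member. COL3A1, BUB1B, NME1 and NME2 were not analysed here.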

Additional observations from a re-analysis of the deposited data

Results flagged for a closer look

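Olfactory receptor genes, which lie outside the comparisons above, had values above 0 for 252 of 387 genes with siRNA 2 in 769-P, against 6 in the 769-P NC, and were examined because this exceeds the control. In the DU145 NC 303 of the 387 were above 0. With the mean olfactory receptor value subtracted from each library, 21 genes of the set were below the DU145 NC with both siRNAs and 35 below the 769-P NC, and the same 4 genes were called in 769-P.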

How the results depend on the processing

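The alternatives were a pseudocount of 0.1, no filter on low values, a minimum mean of 5 FPKM, median centring, 2-fold, each siRNA alone and, for limma, quantile normalization, no trend, the replicate block and each library left out. Background subtraction was chosen after the values were seen. The number of genes called was 1 to 5 with single siRNAs in DU145, and 0 at 2-fold and 7 with either siRNA alone in 769-P, against 0 and 4. Of all 11865 genes tested in 769-P, 1167 were called lower and 1221 higher with siRNA 1 alone. With siRNA 2 alone these numbers were 993 and 730. Genes above the NC numbered 10 to 18 with single siRNAs in DU145, against 9, and 3 after centring and 1 to 6 with single siRNAs in 769-P, against 1. For the level between lines 7 genes passed limma without the filter and 3 to 9 with a library left out, against 11. The numbers passing for the change in either line, or for its difference, were 0 under every alternative run. The labels give same-numbered siRNA libraries of the 2 lines a shared number and no shared batch. Their deviations had a Pearson correlation of 0.27 across all genes tested and 0.50 across the 41 genes, where genes are not independent replicates. With the replicate block 16 genes passed for the level and 0 for the changes. The calls of all genes in DU145 were 560 higher and 141 lower, and 341 and 242 after centring. With 1 control per line no alternative could leave out the control of a change. A pseudocount of 0.1 raised the calls of all genes to 809 higher and 323 lower in DU145 and to 730 and 759 in 769-P, against 427 and 442, and added POLE2 to the genes of the set called there. Without the filter limma passed 1087 genes lower and 99 higher in DU145, against 16 and 0, and without either siRNA library of 769-P it passed 0 for the change in either line.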

Other observations

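Regulators of the G1/S transition were at different levels in the lines. They were picked here after their values were seen. CDKN2A, whose products restrain CDK4 and CDK6 and stabilise p53, had 375, 517 and 418 FPKM in the DU145 NC, siRNA 1 and siRNA 2 libraries and 2.36, 0.00 and 1.62 in those of 769-P. CDK6 had 1.10, 1.03 and 1.52 FPKM in DU145 and 16.9, 15.5 and 15.0 in 769-P, a log2 difference of -2.97 (standard error 0.19, adjusted p = 0.000404 from limma). RB1 was lower in DU145 by the same comparison (-1.65, adjusted p = 0.00178 from limma), as was CDKN1A, a CDK inhibitor that p53 induces (-1.66, adjusted p = 0.00208 from limma). E2F2, an activator of the family, was higher in DU145 (0.95) and E2F7, a repressor, was lower (-1.20).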
